A study of Mus musculus with 24 samples.

Results

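Messenger RNA levels of 34 genes of the lysosome were followed in mouse B cells that lacked the Ets family transcription factors PU.1, SpiB or both. The genes were taken as a list of symbols among the 27179 genes of the deposited count tables, and every one of the 34 was found there. They comprised 9 proteases (the cathepsins Ctsa, Ctsb, Ctsc, Ctsd, Ctsh, Ctsl, Ctss and Ctsz with legumain, Lgmn), 11 glycosidases, lipases and other hydrolases, 3 genes for soluble activators and lipid transfer (Psap, Npc2 and Grn), 9 membrane proteins, and the transcription factors Tfeb and Tfe3. A gene was tested in a stage where it reached 0.5 CPM (read counts scaled to a common library total) in at least 2 libraries, which held for 33 members in naive cells, 34 with CD40L + IL-4 and 33 with LPS + IL-4. The member left out was Cd63, at 0.0595 to 0.427 CPM in naive cells and 0.108 to 0.477 CPM with LPS + IL-4.

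The lysosome is the acidic compartment in which a cell breaks down protein, lipid and carbohydrate delivered by endocytosis or autophagy. In B cells it also shapes the antigen taken up through the B cell receptor, since cathepsins and legumain cut antigen and cathepsin S removes the invariant chain from MHC class II before peptides are loaded. Many lysosomal genes carry an E-box element in their promoters that is bound by TFEB and TFE3, and macrophages and dendritic cells are known for far higher levels of several cathepsins than resting B cells.

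The 24 libraries came from lymph node B cells of C57BL/6 mice, with 2 for each of 4 genotypes at 3 stages: naive, 48 h with CD40L + IL-4, and 48 h with LPS + IL-4. Control mice carried the Cd23-Cre transgene alone (Cd23T/+). PU.1 cKO mice were Spi1fl/fl Cd23T/+, SpiB KO mice were Spi1fl/fl Cd23+/+ Spib-/- and so had no Cre, and PU.1 SpiB DKO mice, called DKO from here on, were Spi1fl/fl Cd23T/+ Spib-/-. Cre was driven by Cd23 regulatory sequences on a bacterial artificial chromosome and acted on the floxed part of Spi1 from the transitional B cell stage on. The Spib allele was null in every cell of the animal. The study reported complete removal of the floxed exon in naive PU.1 cKO cells but marked retention in naive DKO cells. It reported complete removal with CD40L + IL-4 and similarly efficient removal with LPS + IL-4. Cells were isolated by negative selection and sorted as CD3- B220+ CD138-, a gate that B220+ plasmacytoid dendritic cells (pDC) can also enter. The mice of the study were 6 to 20 weeks old when analysed. All libraries shared 1 extraction protocol that spoke of the CD40L + IL-4 culture, and titles gave the stage.

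Counts on genes totalled 14231188 to 18194629 per library in naive cells, 9598674 to 11434235 with CD40L + IL-4 apart from 61640683 in PU.1 cKO replicate 2, and 22757630 to 73658850 with LPS + IL-4. Spi1 differed from control by -1.54, -1.24 and -0.63 log2 in PU.1 cKO at the naive, CD40L and LPS stages, and by -0.63, -1.73 and -0.11 in DKO. The last of these did not pass the test (edgeR adjusted p = 0.448), and counts over the whole gene include exons outside the floxed part. The words without PU.1 below stand for the genotypes with Cre and floxed Spi1, and losing both factors stands for the DKO genotype. Spib differed by -3.83 to -5.50 log2 in the 6 comparisons of SpiB KO and DKO with control. The 8 B cell markers were abundant in every library, and their sums stand beside the results of each stage. The labels did not say that the 2 libraries of a group came from separate cultures, the study's methods call them biological replicates, and p-values measure the spread between these libraries.

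Levels are given as CPM after TMM scaling within a stage, for replicate 1 and then replicate 2. A gene was called differentially expressed (DE) at an adjusted p under 0.15 in edgeR's quasi-likelihood test, adjusted by Benjamini-Hochberg over all genes tested, if it also changed more than 1.5-fold and had a deposited log2 RPKM above 0 on average. Log2 fold changes are given ± their standard error, and each adjusted p below comes from that test. An exact permutation test of 2 libraries against 2 cannot go below p = 0.333 and was not used.

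Per unit of length, the most abundant members in control naive cells were Laptm5, a lysosomal membrane protein of blood cells, and Ctss, at mean deposited log2 RPKM of 9.79 and 9.77. Psap, the precursor of the saposin activators, followed at 8.90, then Ctsh at 8.25 and Ctsz at 7.88. The lowest were Gla at 1.34 and Cd63 at -1.04. With CD40L + IL-4 the order was led by Laptm5 at 9.99 and Psap at 9.27 and ended with Ctsl at 0.13, and with LPS + IL-4 it was led by Ctsz at 8.26 and Ctss at 7.96 and ended with Ctsl at -0.24.

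Most of the members that were DE between stages in control cells were lower after culture. Of the 34 members, 13 were DE in CD40L + IL-4 against naive control cells, 3 higher and 10 lower, where 35.3% of all genes tested were DE, 17.7% higher and 17.5% lower. In LPS + IL-4 against naive cells 25 were DE, 2 higher and 23 lower, against a background of 49.8%, of which 24.4% of genes were lower. LPS + IL-4 against CD40L + IL-4 gave 15 DE members, every one lower in LPS + IL-4, with 31.9% of genes DE in either direction and 14.7% lower. The median log2 difference of the 34 was -0.19, -1.07 and -0.55 in the 3 comparisons, where that of all genes lay at 0.00, 0.01 and 0.00. The CD40L + IL-4 counts were deposited in a table of their own and the naive and LPS + IL-4 counts in another, so that for CD40L + IL-4 table and stage cannot be told apart.

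The protease with the largest fall was Ctsl (cathepsin L), which stood at 43.8 and 14.6 CPM in naive, 1.52 and 3.38 in CD40L and 1.41 and 1.48 in LPS cells on a scale set over all 24 libraries. Every cultured library lay below both naive libraries, which themselves differed 2.89-fold. The pDC marker Siglech, scaled within a stage, was at 57.2 and 23.9 CPM in these naive control libraries, where replicate 1 held 2.40 times replicate 2. It was at 0 and 0 CPM in CD40L and 0.043 and 0 in LPS control cells. The part of pDC transcripts in the fall of Ctsl was not tested. The log2 difference was -3.61 ± 0.38 (adjusted p = 1.96e-07) with CD40L + IL-4 and -4.32 ± 0.35 (adjusted p = 1.95e-09) with LPS + IL-4. Ctss was at 1420.3 and 1255 CPM in naive, 363 and 509 in CD40L and 347 and 323 in LPS cells, lower in all 4 cultured libraries. Its log2 differences from naive cells were -1.62 ± 0.15 (adjusted p = 2.39e-08) and -1.998 ± 0.15 (adjusted p = 5.94e-10). Ctsh, an aminopeptidase, was at 569 and 458 CPM in naive, 416 and 549 in CD40L and 183 and 136 in LPS cells. Here the CD40L and naive libraries overlapped and the LPS libraries stood below both, at -1.69 ± 0.17 (adjusted p = 5.37e-08) against naive and -1.60 ± 0.17 (adjusted p = 7.07e-07) against CD40L + IL-4.

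Among membrane proteins and lipid hydrolases, Laptm5 was at 2492 and 2469.7 CPM in naive, 1716 and 2073 in CD40L and 564 and 457 in LPS cells. It was lowest in LPS cells, with log2 differences of -2.28 ± 0.14 (adjusted p = 4.37e-11) from naive and -1.89 ± 0.14 (adjusted p = 9.03e-09) from CD40L cells. Laptm4a was at 264 and 227 CPM in naive, 88.7 and 135 in CD40L and 79.0 and 75.2 in LPS cells, with log2 differences from naive of -1.14 and -1.67. For Lipa, the acid lipase of cholesteryl esters, the levels were 117 and 86.8 CPM in naive, 37.9 and 47.5 in CD40L and 42.2 and 44.1 in LPS cells. Scarb2, the receptor that carries glucocerebrosidase to the lysosome, was at 66.3 and 52.2 CPM in naive, 23.3 and 27.4 in CD40L and 19.1 and 18.6 in LPS cells. Both were lower in every cultured library than in every naive one. Lipa differed from naive cells by -1.25 ± 0.16 (adjusted p = 1.48e-06) in CD40L and -1.24 ± 0.15 (adjusted p = 6.13e-07) in LPS cells, and Scarb2 by -1.23 ± 0.16 (adjusted p = 2.13e-06) and -1.65 ± 0.15 (adjusted p = 1.34e-08). Psap was near its naive level with CD40L + IL-4 and lower with LPS + IL-4, at 1612 and 1355 CPM in naive, 1292 and 1566 in CD40L and 584 and 569 in LPS cells. Between LPS and CD40L cells Psap differed by -1.31 ± 0.15 (adjusted p = 1.01e-06) and Ctsa by -1.37 ± 0.17 (adjusted p = 2.24e-06).

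Members that were higher in culture were few. Grn, the progranulin precursor, stood at 203 and 125 CPM in naive, 276 and 319 in CD40L and 273 and 299 in LPS cells. The difference was 0.86 ± 0.18 (adjusted p = 0.000602) in CD40L and 0.80 ± 0.18 (adjusted p = 0.000691) in LPS cells. Without naive control replicate 2 these differences were 0.55 and 0.49, under the 1.5-fold threshold. Gusb (beta-glucuronidase) was at 46.5 and 35.8 CPM in naive, 70.3 and 76.4 in CD40L and 94.3 and 122 in LPS cells. Every cultured library lay above every naive one, by 0.83 ± 0.16 (adjusted p = 0.000211) and 1.39 ± 0.16 (adjusted p = 2.13e-07). The third gene counted as higher with CD40L + IL-4, and 1 of the 15 counted as lower with LPS + IL-4, was Cd63, which rested on 20 and 73 counts with CD40L + IL-4, 5 and 6 in naive cells and 3 and 6 with LPS + IL-4. It passed the filter through the CD40L + IL-4 libraries alone, so it had to differ and its test is not given. Tfeb was at 154 and 186 CPM in naive, 119.5 and 134 in CD40L and 73.9 and 60.5 in LPS cells. LPS cells were lowest, with differences of -1.34 ± 0.13 (adjusted p = 3.04e-08) from naive and -0.92 ± 0.13 (adjusted p = 1.5e-05) from CD40L cells. Tfe3 was at 36.9 and 48.6 CPM in naive, 40.7 and 36.1 in CD40L and 48.9 and 44.2 in LPS cells, with overlapping stages and no DE call.

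**Figure D1:**
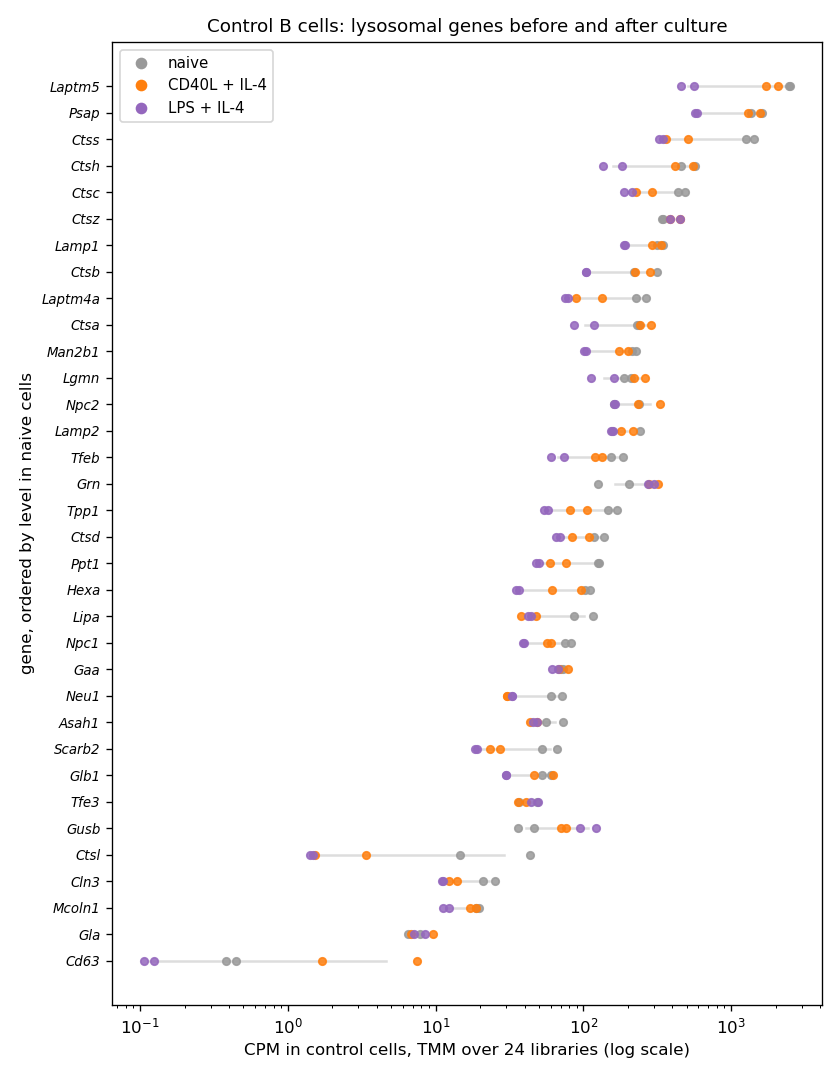
Levels of lysosomal genes in the control libraries of the 3 stages, as CPM on a log axis after TMM scaling over all 24 libraries; each point is 1 library. Ctsl fell from 43.8 and 14.6 CPM in naive cells to 1.41 and 1.48 with LPS + IL-4, while Gusb rose from 46.5 and 35.8 to 94.3 and 122.

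The genes that the following results turn on were located in the RefSeq annotation on GRCm38, the build of the files. Grn occupies chromosome 11 from 102430507 to 102436809, Ctsl chromosome 13 from 64361890 to 64370772, Ctsb chromosome 14 from 63122462 to 63145923, Psap chromosome 10 from 60277628 to 60302600 and Lgmn chromosome 12 from 102394082 to 102439728. Ctss lies on chromosome 3 from 95526786 to 95556405, Neu1 on chromosome 17 from 34931253 to 34937297, Asah1 on chromosome 8 from 41340646 to 41397644, Laptm5 on chromosome 4 from 130912890 to 130936148 and Ctsd on chromosome 7 from 142375910 to 142387827. Counting was not stated to use strand, and in the GENCODE annotation parts of some genes are shared with other genes. This held for 34.4% of the exonic bases of Ctsd with Gm49369 and 26.8% of Ctsl with Gm47123 and Gm49230. It also held for 17.4% of Ctsa with Neurl2 and Pltp, and 12.8% of Ctsb with Fdft1. How reads in shared bases were assigned was not given in the sources used here.

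Promoter windows of RefSeq, 250 bases before to 50 after a start, were read for 30 of the 34 members, with none for Asah1, Npc1, Ctsb and Ctsh. They were searched on both strands for CACGTG, the E-box core of the element bound by TFEB and TFE3, for its longer form TCACGTG, which contains the core, and for GAGGAA, an Ets-type sequence. CACGTG lay in windows of 10 members (Cln3, Ctsa, Ctsd, Ctsl, Gaa, Gla, Glb1, Lamp1, Lgmn and Mcoln1) and in 7.15% of all 32851 windows, and TCACGTG in windows of 9 members and 3.77% of all. GAGGAA lay in windows of 13 members (Cd63, Cln3, Ctsc, Ctss, Gla, Glb1, Grn, Gusb, Lamp2, Laptm5, Lipa, Man2b1 and Psap) and in 28.3% of all. Some members had more than 1 window, and the shares of all are shares of windows. Of the 37 windows of the 30 members, CACGTG lay in 10, TCACGTG in 9 and GAGGAA in 13. Other members with a window, Npc2 and Neu1 among them, had neither motif. As examples of windows that hold 1 of the motifs, stretches of 30 bases are shown for 4 DE members with GAGGAA (Grn, Ctss, Psap and Laptm5) and 3 with CACGTG (Lgmn, Ctsd and Ctsl), chosen with their values known, 5′ to 3′ in the direction of the gene on GRCm38.p6, with the motif in capitals (TTCCTC is GAGGAA on the other strand). The Lgmn window belongs to 1 of 2 start sites of the gene. The Lgmn, Laptm5 and Ctsl stretches lie inside the span given above for each gene, before a start that is not the outermost one.
Grn chr11:102430325-102430354, plus strand: gagaaaGAGGAAagggagGAGGAAtgtgaa
Ctss chr3:95526610-95526639, plus strand: gacacagggttgGAGGAAaactttgtcctg
Psap chr10:60277418-60277447, plus strand: ccctgggctggaTTCCTCacattgcaaagg
Laptm5 chr4:130913266-130913295, plus strand: gcagcctgtggcTTCCTCttttttgttctg
Lgmn chr12:102439124-102439153, minus strand: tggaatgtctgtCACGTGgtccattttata
Ctsd chr7:142387908-142387937, minus strand: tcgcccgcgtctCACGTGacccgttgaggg
Ctsl chr13:64370739-64370768, minus strand: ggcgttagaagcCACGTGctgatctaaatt
These matches describe the letters in the windows and were not tested as binding sites.

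In naive cells, both genotypes without SpiB had higher levels of a set of lysosomal genes. SpiB KO had 7 DE members, every one higher than control: Ctsl (9.31-fold), Grn (3.96-fold), Ctsb (3.24-fold), Npc2, Psap, Ctsd and Npc1. DKO had 9, of which 8 were higher, led by Ctsl (11.5-fold), Grn (4.8-fold) and Ctsb (3.83-fold), and Lgmn lower. PU.1 cKO had 4, with Asah1, Lgmn and Tfe3 lower and Neu1 higher. The background in PU.1 cKO was 8.4% of all 12500 genes, 3.16% higher and 5.24% lower. The share was 6.35% in SpiB KO, 3.46% higher and 2.9% lower, and 14.1% in DKO, 7.39% higher and 6.7% lower. The median log2 fold change of the 33 members was -0.09, 0.15 and 0.11 in PU.1 cKO, SpiB KO and DKO, where that of all genes lay at -0.01, 0.01 and 0.00. The 3 comparisons share the same 2 control libraries. In bulk RNA, more or fewer cells of a type and more or less RNA per cell cannot be told apart.

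**Figure D2:**
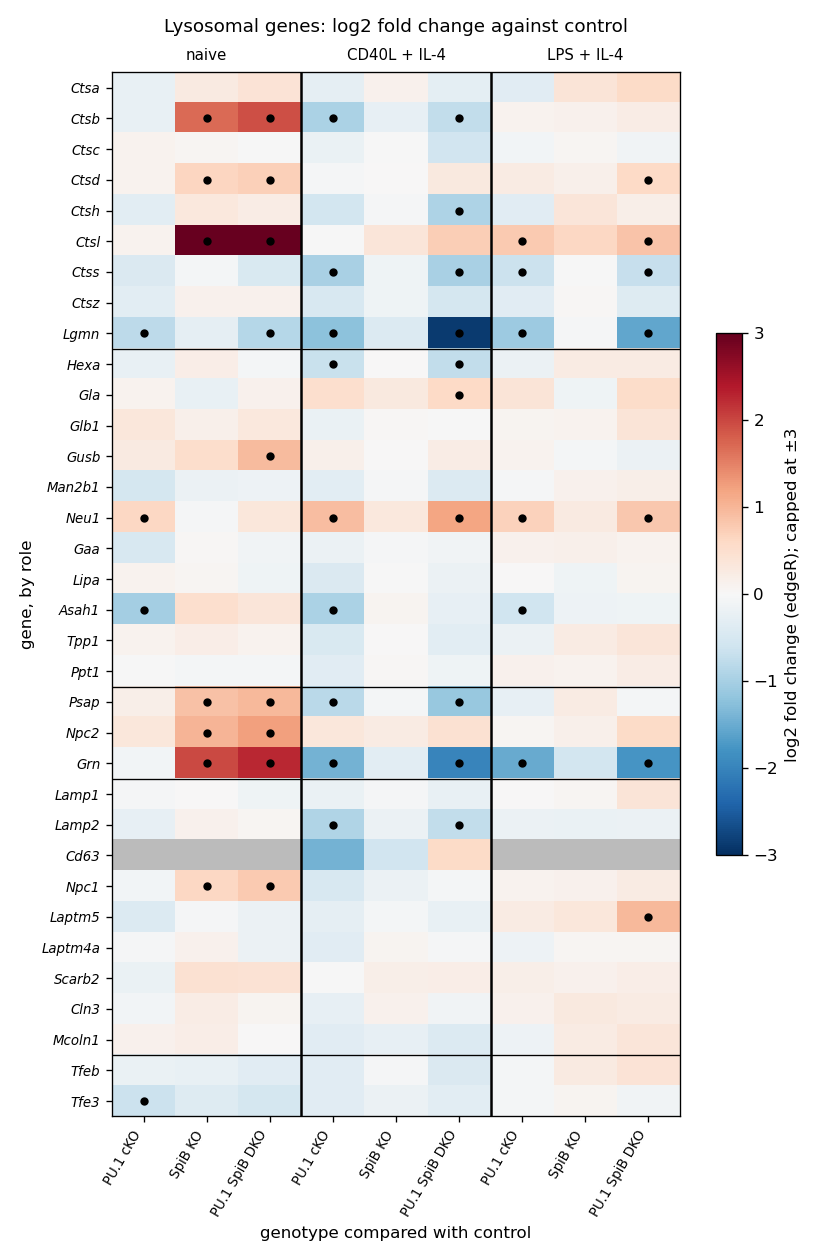
Log2 fold change of each of the 34 genes against control for the 3 mutant genotypes at the 3 stages, with the colour limited to ±3, dots on DE genes and grey where Cd63 was not tested. Ctsl, Grn and Ctsb were higher in naive cells without SpiB, and Grn and Lgmn were lower in cultured cells without PU.1.

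Of the proteases in naive cells, Ctsl was measured at 40.3 and 13.9 CPM for control, 28.5 and 30.004 for PU.1 cKO, then 255 and 249.9 for SpiB KO and 325 and 298 for DKO. All 4 libraries without SpiB lay above all 4 with it, and the control libraries were the pair furthest apart as a ratio. The log2 fold change was 3.22 ± 0.36 (adjusted p = 0.000814) in SpiB KO, 3.52 ± 0.36 (adjusted p = 0.000223) in DKO and 0.11 ± 0.35 (adjusted p = 0.88) in PU.1 cKO. Leaving out 1 library at a time gave 2.65 to 4.17 for SpiB KO and 2.95 to 4.47 for DKO. The lowest value of each came without control replicate 2 and the highest without control replicate 1. Ctsb (cathepsin B, a cysteine protease of most cells) was measured at 289.6 and 211 CPM for control, 203 and 228 for PU.1 cKO, then 883 and 740.3 for SpiB KO and 993 and 926 for DKO. Its groups with and without SpiB did not overlap, with log2 fold changes of 1.70 ± 0.16 (adjusted p = 0.000363) in SpiB KO and 1.94 ± 0.16 (adjusted p = 7.76e-05) in DKO. For Ctsd, the main aspartic protease of the lysosome, the levels were 127 and 113 CPM for control, 132 and 125 for PU.1 cKO, then 199 and 175 for SpiB KO and 211 and 180.4 for DKO. These groups did not overlap either, by a smaller margin, at 0.64 ± 0.12 (adjusted p = 0.0151) and 0.71 ± 0.12 (adjusted p = 0.00357). In SpiB KO the Ctsd call was lost without SpiB KO replicate 1 (0.55) or control replicate 2 (0.56), each under 1.5-fold.

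The 3 soluble activators and lipid transfer genes were all DE in both genotypes without SpiB. Grn was measured at 187 and 119.5 CPM for control, 145 and 143 for PU.1 cKO, then 637 and 578 for SpiB KO and 752 and 719 for DKO. The lowest library without SpiB held more than 3 times the Grn of the highest library with it. Log2 fold changes were 1.99 ± 0.18 (adjusted p = 0.000276) in SpiB KO and 2.26 ± 0.19 (adjusted p = 7.03e-05) in DKO. Psap was measured at 1483 and 1296 CPM for control, 1498 and 1659.6 for PU.1 cKO, then 2669.7 and 2431 for SpiB KO and 2885 and 2555 for DKO. In the same order its log2 fold changes were 0.88 ± 0.13 (adjusted p = 0.0036) and 0.97 ± 0.13 (adjusted p = 0.000868). For Npc2, which passes cholesterol to NPC1, the levels were 218 and 153 CPM for control, 240.1 and 228 for PU.1 cKO, then 417 and 336 for SpiB KO and 480.0 and 391 for DKO. They changed by 1.02 ± 0.18 (adjusted p = 0.0102) and 1.23 ± 0.18 (adjusted p = 0.00151). Neither Psap nor Npc2 overlapped between libraries with and without SpiB. Npc1, the membrane cholesterol exporter, was measured at 75.5 and 72.2 CPM for control, 68.1 and 70.7 for PU.1 cKO, then 113 and 115 for SpiB KO and 138 and 118 for DKO. It differed from control by 0.63 ± 0.11 (adjusted p = 0.0102) and 0.79 ± 0.11 (adjusted p = 0.00117), and was the 1 DE gene among the 8 membrane proteins tested. Gusb, measured at 42.8 and 34.3 CPM for control, 46.6 and 46.0 for PU.1 cKO, then 52.3 and 59.0 for SpiB KO and 75.3 and 73.3 for DKO, was DE in DKO alone. DKO was at 0.95 ± 0.14 (adjusted p = 0.00141), while SpiB KO was at 0.53 ± 0.14 (adjusted p = 0.0565). Whether the 2 genotypes differed in Gusb was tested directly and did not pass, with a log2 difference of 0.42 ± 0.13 (adjusted p = 0.214).

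**Figure D3:**
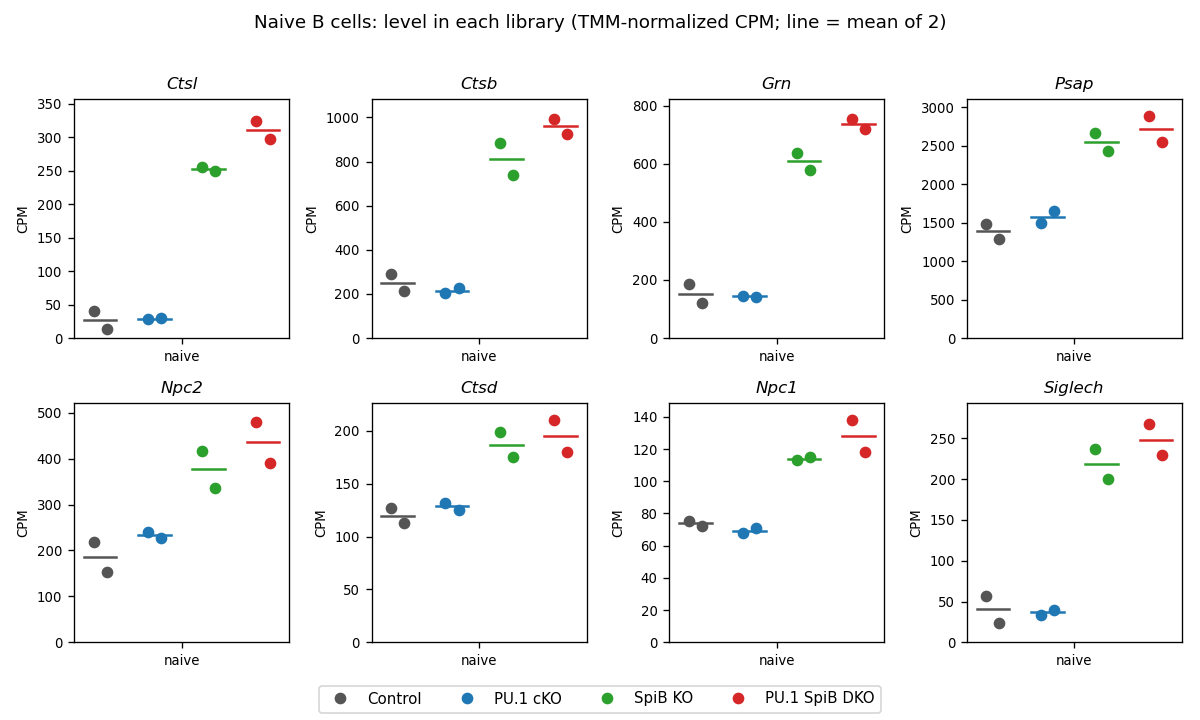
Levels of 7 lysosomal genes and of Siglech, a pDC marker, in the 8 naive libraries, as CPM on linear axes that start at 0; points are libraries and bars are means of 2. Ctsl, Ctsb, Grn, Psap, Npc2, Ctsd and Npc1 were higher in all libraries without SpiB, and so was Siglech.

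Markers of other cell types moved with these genes. The 9 pDC markers summed to 402 and 249 CPM for control, 370.2 and 319.8 for PU.1 cKO, then 2454 and 1941 for SpiB KO and 2951 and 2635 for DKO. Siglech, a pDC surface lectin, was measured at 57.2 and 23.9 CPM for control, 33.3 and 39.9 for PU.1 cKO, then 237 and 199.9 for SpiB KO and 267 and 229 for DKO. In naive control cells replicate 1 held 2.40 times the Siglech of replicate 2, and 2.89 times the Ctsl. Ctsl CPM per Siglech CPM was 0.704 and 0.583 for control, 0.855 and 0.752 for PU.1 cKO, then 1.08 and 1.25 for SpiB KO and 1.22 and 1.30 for DKO. For Grn the same ratio was 3.27 and 5.00, 4.36 and 3.57, 2.69 and 2.89, and 2.82 and 3.14 in that order of genotypes. For Ctsb it was 5.06 and 8.85, 6.11 and 5.70, 3.73 and 3.70, and 3.72 and 4.04. The 16 macrophage markers summed to 26.2 and 15.1 CPM for control, 14.1 and 18.1 for PU.1 cKO, then 66.2 and 55.4 for SpiB KO and 78.2 and 76.9 for DKO. Among them Mertk and Vsig4 were at 0 in every control, SpiB KO and DKO library and C1qa and Cd14 did not pass 0.948 CPM, while Cd68 was measured at 11.3 and 5.76 CPM for control, 6.24 and 6.57 for PU.1 cKO, then 49.1 and 36.8 for SpiB KO and 55.4 and 52.6 for DKO. Of 8 macrophage markers tested, 1 was DE in SpiB KO and 3 in DKO, all higher, where 6.35% and 14.1% of all genes were DE. Log2 fold changes of the 8 in DKO ran from 0.37 to 4.09. The 6 conventional dendritic cell markers summed to 46.5 and 20.4 CPM for control, 26.4 and 23.9 for PU.1 cKO, then 81.8 and 66.7 for SpiB KO and 105 and 87.0 for DKO. The 8 T cell markers summed to 116 and 72.2 CPM for control, 117 and 116 for PU.1 cKO, then 460.2 and 381 for SpiB KO and 573 and 564 for DKO, with Cd3e at no more than 0.632 CPM. Of 7 tested, 4 were DE in DKO, all higher, where 14.1% of all genes were DE. Cd8a was measured at 12.0 and 2.35 CPM for control, 5.48 and 6.32 for PU.1 cKO, then 231 and 175 for SpiB KO and 266 and 233 for DKO. Cd8b1 was at 19.5 and 6.76 CPM for control and 96.1 and 104 for DKO. The 8 B cell markers summed to 12119 and 12682 CPM for control, 11509 and 11718 for PU.1 cKO, then 10219 and 10117 for SpiB KO and 9108 and 8511 for DKO, and were lower in all 4 libraries without SpiB than in the other 4. The part of these cells in the higher lysosomal transcripts was not tested.

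A few members were lower in the naive genotypes without PU.1. Lgmn (legumain, an asparaginyl endopeptidase that activates cathepsins) was measured at 193 and 179.9 CPM for control, 106 and 111 for PU.1 cKO, then 139 and 172 for SpiB KO and 105 and 99.1 for DKO. All 4 libraries with Cre and floxed Spi1 lay below the other 4. Log2 fold changes of Lgmn were -0.78 ± 0.12 (adjusted p = 0.00568) in PU.1 cKO and -0.87 ± 0.12 (adjusted p = 0.00119) in DKO, and -0.26 ± 0.12 (adjusted p = 0.269) in SpiB KO. Lgmn was also the 1 member that differed between DKO and SpiB KO, at -0.60 ± 0.12 (adjusted p = 0.0388), where 1.97% of all genes did, 1.18% higher and 0.792% lower. That call was lost without DKO replicate 1 or 2 or SpiB KO replicate 2. Asah1 (acid ceramidase) was measured at 67.0 and 53.6 CPM for control, 30.7 and 28.9 for PU.1 cKO, then 85.2 and 85.5 for SpiB KO and 84.3 and 71.8 for DKO. It was low in PU.1 cKO alone, at -1.02 ± 0.14 (adjusted p = 0.00327), and at 0.50 ± 0.14 (adjusted p = 0.0718) in SpiB KO and 0.37 ± 0.14 (adjusted p = 0.0905) in DKO. DKO lay 0.89 ± 0.20 (adjusted p = 0.138) away from what the 2 single losses add up to in Asah1. It was the 1 member called in that test, where 0.936% of genes were called, 0.456% above and 0.48% below the sum. Cre and the floxed allele do not cancel in that test at any stage, since SpiB KO had no Cre and control no floxed Spi1. In naive cells Spi1 itself departed from the sum by 0.93 ± 0.16 (adjusted p = 0.0486). A departure cannot be told apart from an effect of Cre or, in naive cells, of retained Spi1. Neu1, a sialidase, was measured at 65.8 and 57.7 CPM for control, 88.3 and 101 for PU.1 cKO, then 61.1 and 59.2 for SpiB KO and 81.6 and 74.9 for DKO. Neu1 was DE in PU.1 cKO, at 0.61 ± 0.12 (adjusted p = 0.0175). Without control replicate 2 or PU.1 cKO replicate 2 it was 0.52 or 0.50, under 1.5-fold.

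Against PU.1 cKO, naive DKO cells had 11 DE members of 33, all higher in DKO, where 7.21% of all genes were DE, 5.34% higher and 1.86% lower. They were Ctsl at 3.41, Grn at 2.35, Ctsb at 2.15, Asah1 at 1.39 ± 0.14 (adjusted p = 0.000208), and Npc2, Npc1, Psap, Gusb, Ctsa, Scarb2 and Ctsd at 0.60 to 0.90. Neither Tfeb nor Tfe3 was called higher in a naive mutant. Tfeb was measured at 141 and 178 CPM for control, 141 and 138 for PU.1 cKO, then 131 and 141 for SpiB KO and 124 and 128 for DKO. Tfe3 was at 33.9 and 46.4 CPM for control, 25.2 and 26.5 for PU.1 cKO, then 30.9 and 30.1 for SpiB KO and 26.4 and 28.9 for DKO. The latter was DE and lower in PU.1 cKO, at -0.64 ± 0.16 (adjusted p = 0.0492). That call was lost without control replicate 2 (-0.39) or either PU.1 cKO library. Tfe3 stood at -0.40 ± 0.16 (adjusted p = 0.21) in SpiB KO and -0.54 ± 0.16 (adjusted p = 0.0462) in DKO. The log2 fold change of Tfeb was -0.20, -0.23 and -0.34 in PU.1 cKO, SpiB KO and DKO (adjusted p = 0.367, 0.336 and 0.0781). Members that were not DE ranged from -0.53 to 0.33 in PU.1 cKO, from -0.40 to 0.53 in SpiB KO and from -0.54 to 0.44 in DKO. Ctss was among them, at 1306 and 1199.8 CPM for control, 969 and 900.4 for PU.1 cKO, then 1264 and 1142 for SpiB KO and 963 and 875 for DKO.

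After 48 h with CD40L + IL-4, 8 of 34 members were lower in each genotype without PU.1, and loss of SpiB alone gave no DE member. In PU.1 cKO 9 of 34 were DE: Grn, Lgmn, Ctss, Asah1, Ctsb, Lamp2, Psap and Hexa were lower and Neu1 was higher. In DKO 10 were DE: Lgmn (7.33-fold lower), Grn (3.96-fold lower), Psap, Ctss, Ctsh, Ctsb, Hexa and Lamp2 were lower, and Neu1 and Gla higher. In SpiB KO none was DE by edgeR, DESeq2 or voom, with 1 gene (Lgmn) at an unadjusted p under 0.05, and 0.11% of all genes were DE, 0.0707% higher and 0.0393% lower. The background was 9.36% of genes DE in PU.1 cKO, 3.91% higher and 5.45% lower, and 13.7% in DKO, 5.84% higher and 7.82% lower. In PU.1 cKO 30 of 34 fold changes lay below 0, and the median was -0.33 where that of all genes was -0.01. In DKO the median was -0.24 against 0.00.

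Among the proteases, Lgmn was measured at 229 and 267 CPM for control, 107 and 104 for PU.1 cKO, then 219 and 153 for SpiB KO and 35.3 and 32.4 for DKO. Both DKO libraries lay below PU.1 cKO, and both of those below every control and SpiB KO library. The log2 fold changes were -1.23 ± 0.19 (adjusted p = 0.00215) in PU.1 cKO, -2.87 ± 0.20 (adjusted p = 1.06e-05) in DKO and -0.42 ± 0.18 (adjusted p = 1) in SpiB KO. DKO differed from PU.1 cKO by -1.64 ± 0.19 (adjusted p = 0.00129) and from SpiB KO by -2.46 ± 0.20 (adjusted p = 3.91e-05), and lay -1.22 ± 0.26 (adjusted p = 0.114) away from what the single losses add up to. Lgmn was the 1 member called in that last test, where 1.17% of genes were called, 0.542% above and 0.629% below the sum. Ctss was measured at 376 and 520.2 CPM for control, 230.0 and 229 for PU.1 cKO, then 455 and 369.6 for SpiB KO and 229 and 229 for DKO. The 4 libraries without PU.1 lay close together below the others, at -0.97 ± 0.18 (adjusted p = 0.00813) in PU.1 cKO and -0.97 ± 0.18 (adjusted p = 0.0058) in DKO. Ctsb was measured at 232 and 290.0 CPM for control, 136 and 134 for PU.1 cKO, then 232 and 211 for SpiB KO and 159 and 153 for DKO. PU.1 cKO differed by -0.96 ± 0.16 (adjusted p = 0.00353) and DKO by -0.74 ± 0.16 (adjusted p = 0.0108). In DKO this difference had the opposite sign to that in naive cells. Without control replicate 2 the Ctsb difference in DKO was -0.57, under 1.5-fold. For Ctsh the levels were 431 and 561 CPM for control, 338 and 339 for PU.1 cKO, then 539 and 436 for SpiB KO and 299 and 226 for DKO. DKO was DE, at -0.92 ± 0.19 (adjusted p = 0.0105), with PU.1 cKO at -0.55 ± 0.19 (adjusted p = 0.113). Ctsl was low everywhere, at 1.58 and 3.46 CPM for control, 2.51 and 2.43 for PU.1 cKO, then 3.45 and 2.95 for SpiB KO and 4.53 and 3.81 for DKO, and was not DE.

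Grn was measured at 286 and 326 CPM for control, 110.5 and 120.3 for PU.1 cKO, then 251 and 241 for SpiB KO and 75.4 and 79.0 for DKO. The groups without PU.1 did not overlap the others, and DKO lay lowest. The changes from control were -1.41 ± 0.15 (adjusted p = 0.000221) in PU.1 cKO and -1.99 ± 0.15 (adjusted p = 1.85e-05) in DKO. Psap was measured at 1338 and 1601 CPM for control, 830.0 and 836 for PU.1 cKO, then 1594 and 1248 for SpiB KO and 724 and 614 for DKO. Here the changes were -0.82 ± 0.18 (adjusted p = 0.0162) in PU.1 cKO and -1.14 ± 0.18 (adjusted p = 0.00195) in DKO. Both genes were thus below control in DKO in this culture and above it in naive cells. Lamp2, which guards the lysosomal membrane and serves chaperone-mediated autophagy, was measured at 186 and 223 CPM for control, 103 and 115 for PU.1 cKO, then 183 and 176 for SpiB KO and 139 and 107 for DKO. It changed by -0.90 ± 0.17 (adjusted p = 0.00871) in PU.1 cKO and by -0.73 ± 0.17 (adjusted p = 0.0185) in DKO. Hexa (the alpha chain of beta-hexosaminidase) was measured at 63.4 and 98.1 CPM for control, 48.4 and 53.5 for PU.1 cKO, then 92.0 and 71.4 for SpiB KO and 48.7 and 48.1 for DKO. For the same genotypes the changes were -0.66 ± 0.21 (adjusted p = 0.0823) and -0.74 ± 0.21 (adjusted p = 0.0425). Its control libraries differed by more than its libraries without PU.1 did, and without control replicate 2 the differences were -0.31 and -0.39 and neither was DE. The Lamp2 call in DKO was lost without DKO replicate 2 (-0.55).

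Asah1 was measured at 45.1 and 49.4 CPM for control, 25.1 and 23.6 for PU.1 cKO, then 48.2 and 51.8 for SpiB KO and 39.9 and 39.5 for DKO. As in naive cells PU.1 cKO was the low group, at -0.96 ± 0.15 (adjusted p = 0.0025), while DKO stood at -0.25 ± 0.15 (adjusted p = 0.293), and the 2 genotypes differed by 0.71 ± 0.15 (adjusted p = 0.04). Together with Lgmn this made 2 DE members between them, where 3.01% of genes were DE, 1.41% higher and 1.6% lower. Leaving out either PU.1 cKO library or DKO replicate 2 left 1. Neu1 was measured at 31.4 and 31.1 CPM for control, 57.6 and 60.3 for PU.1 cKO, then 38.2 and 39.8 for SpiB KO and 76.6 and 66.4 for DKO. All libraries without PU.1 were above the rest. Against control PU.1 cKO was higher by 0.92 ± 0.15 (adjusted p = 0.00329) and DKO by 1.19 ± 0.15 (adjusted p = 0.0005). Gla (alpha-galactosidase A) was measured at 7.02 and 9.85 CPM for control, 11.6 and 12.2 for PU.1 cKO, then 9.07 and 11.4 for SpiB KO and 12.6 and 13.0 for DKO. Its call in DKO, at 0.61 ± 0.24 (adjusted p = 0.119), was lost in DESeq2 (adjusted p = 0.188) and without control replicate 1 (0.38). Against SpiB KO, DKO had 7 DE members where 11.4% of genes were DE, 5.2% higher and 6.18% lower. They were Lgmn, Grn, Psap, Ctsh, Ctss and Hexa lower and Neu1 higher. Tfeb was measured at 124 and 137 CPM for control, 94.9 and 112 for PU.1 cKO, then 137 and 119 for SpiB KO and 96.2 and 98.5 for DKO. Tfe3 was at 42.1 and 36.9 CPM for control, 31.0 and 31.1 for PU.1 cKO, then 36.3 and 34.1 for SpiB KO and 32.9 and 31.0 for DKO, and neither was DE in a mutant. SpiB KO differed from control by -0.58 to 0.36 over the 34 members. The other members that were not DE ranged from -1.42 to 0.50 in PU.1 cKO, where the lowest was Cd63, at 1.76 and 7.65 CPM for control and 1.80 and 1.68 for PU.1 cKO, and from -0.57 to 0.74 in DKO.

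Of 16 macrophage markers in this culture, 9 to 11 were at 0 in both libraries of a genotype, among them C1qa, Csf1r and Cd14. The list summed to 45.1 and 60.3 CPM for control, 10.7 and 9.36 for PU.1 cKO, then 59.7 and 40.7 for SpiB KO and 12.1 and 8.96 for DKO, and was low in the genotypes without PU.1, as Grn and Lgmn were. In control and SpiB KO most of it came from Emr1 and Cd68. Emr1 was measured at 27.7 and 42.1 CPM for control, 1.5036 and 2.32 for PU.1 cKO, then 42.4 and 27.5 for SpiB KO and 4.86 and 4.19 for DKO. Cd68 was measured at 12.6 and 14.1 CPM for control, 2.71 and 2.88 for PU.1 cKO, then 12.7 and 10.3 for SpiB KO and 3.67 and 4.00 for DKO. The 8 plasma cell markers summed to 1235 and 1430.2 CPM for control, 1883 and 2107 for PU.1 cKO, then 1174 and 1737 for SpiB KO and 2400.3 and 2630.2 for DKO, and were highest in DKO. The 8 B cell markers summed to 6739 and 8355 CPM for control, 5691 and 5299 for PU.1 cKO, then 8761 and 6502 for SpiB KO and 5088 and 4120.0 for DKO, lower in all 4 libraries without PU.1 than in the other 4. Siglech did not pass 0.493 CPM in any cultured library. The part of these in the lower lysosomal transcripts was not tested.

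**Figure D4:**
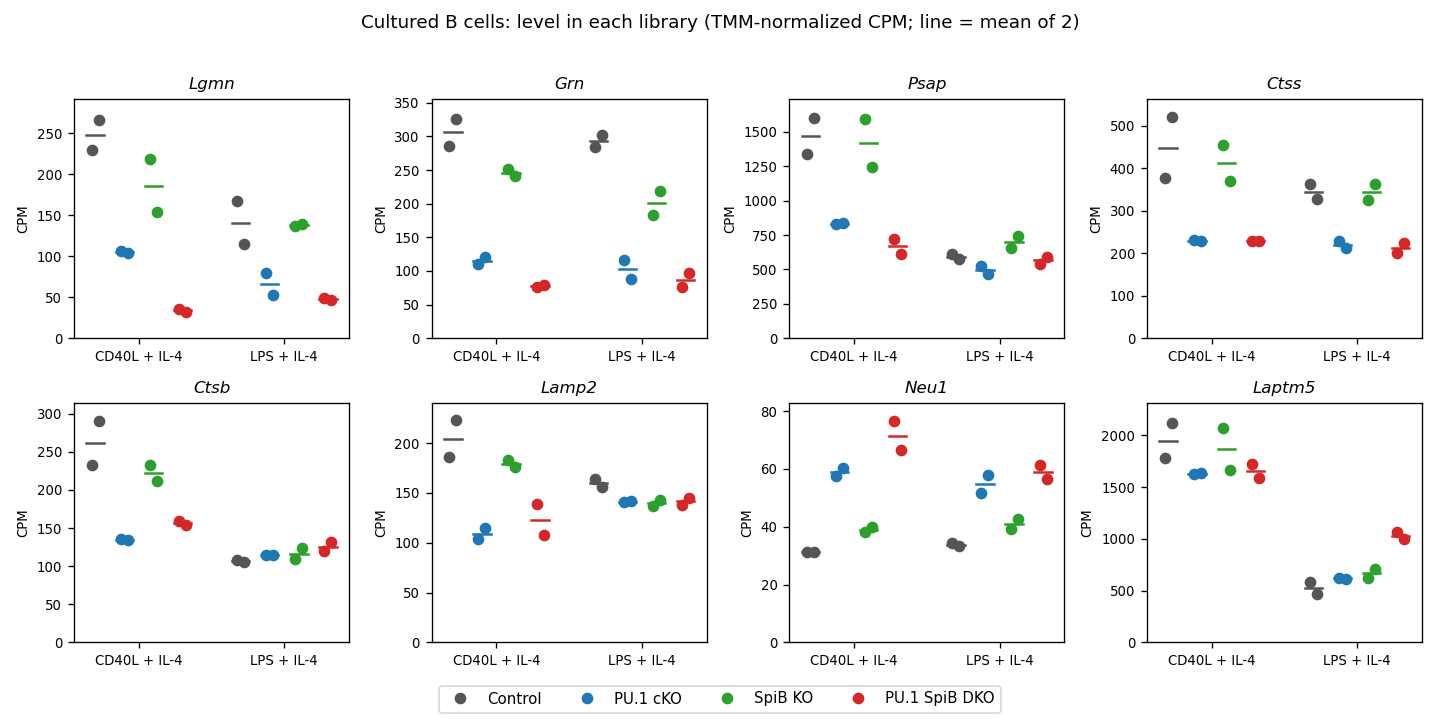
Levels of 8 lysosomal genes in the CD40L + IL-4 and LPS + IL-4 cultures for the 4 genotypes, as CPM on linear axes that start at 0; points are libraries and bars are means of 2. Lgmn and Grn were lower without PU.1 in both cultures and Neu1 was higher, and Laptm5 was higher in DKO with LPS + IL-4, at 1063 and 1001 CPM against 588 and 462 in control.

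With LPS + IL-4, lysosomal genes were called in both directions without PU.1. PU.1 cKO had 6 DE members of 33, with Grn, Lgmn, Ctss and Asah1 lower and Neu1 and Ctsl higher. DKO had 7, with Grn (3.4-fold), Lgmn (2.96-fold) and Ctss lower and Laptm5 (1.97-fold), Ctsl, Neu1 and Ctsd higher. The background was 6.67% of genes in PU.1 cKO, 3.93% higher and 2.74% lower, and 13.6% in DKO, 4.81% lower and 8.76% higher. SpiB KO had 0 DE members by edgeR, DESeq2 or voom, where 2.29% of genes were DE and 1.62% higher. In SpiB KO 12 members had an unadjusted p under 0.05 in edgeR's test, a threshold for which no share of all genes is given. The median log2 fold change over the members was -0.02 in PU.1 cKO and 0.22 in DKO, where that of all genes lay at -0.002 and 0.008. Same-numbered LPS + IL-4 libraries deviated together, and adding the replicate number as a block changed no DE count against control.

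Grn was measured at 285 and 302 CPM for control, 117 and 87.4 for PU.1 cKO, then 184 and 218 for SpiB KO and 75.6 and 97.3 for DKO. Both groups without PU.1 lay below the others, at -1.52 ± 0.16 (adjusted p = 0.00033) and -1.76 ± 0.16 (adjusted p = 5.75e-05), and SpiB KO, at -0.55 ± 0.16 (adjusted p = 0.135), lay between with a fold change under 1.5. Lgmn was measured at 168 and 115 CPM for control, 79.6 and 52.6 for PU.1 cKO, then 137 and 139 for SpiB KO and 48.9 and 46.1 for DKO. SpiB KO lay within the range of control. PU.1 cKO changed by -1.09 ± 0.20 (adjusted p = 0.00732) and DKO by -1.57 ± 0.21 (adjusted p = 0.000489). Ctss was measured at 362 and 327 CPM for control, 229 and 211 for PU.1 cKO, then 325 and 362 for SpiB KO and 199.9 and 224 for DKO. The corresponding changes were -0.64 ± 0.10 (adjusted p = 0.00252) and -0.70 ± 0.10 (adjusted p = 0.000695). Its PU.1 cKO call was lost without control replicate 1 (-0.56). Asah1 was measured at 50.5 and 45.9 CPM for control, 30.6 and 32.7 for PU.1 cKO, then 44.9 and 41.7 for SpiB KO and 47.4 and 41.0 for DKO. PU.1 cKO was again the low group, at -0.61 ± 0.11 (adjusted p = 0.00541), and DKO was at -0.12 ± 0.11 (adjusted p = 0.416). The PU.1 cKO call was lost without control replicate 1 (-0.53) or PU.1 cKO replicate 1 (-0.56).

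Higher in both genotypes, Neu1 was measured at 34.3 and 33.3 CPM for control, 51.6 and 58.0 for PU.1 cKO, then 39.1 and 42.9 for SpiB KO and 61.4 and 56.7 for DKO. The libraries without PU.1 did not overlap those with it. PU.1 cKO was higher by 0.70 ± 0.10 (adjusted p = 0.00186) and DKO by 0.80 ± 0.10 (adjusted p = 0.000346). Ctsl was measured at 1.47 and 1.49 CPM for control, 2.65 and 2.4981 for PU.1 cKO, then 2.31 and 2.22 for SpiB KO and 2.66 and 2.74 for DKO, a level far below that of naive cells. Both genotypes without PU.1 were above the other libraries, with changes from control of 0.79 ± 0.21 (adjusted p = 0.0404) and 0.86 ± 0.22 (adjusted p = 0.0133). Laptm5, which targets receptors such as the B cell receptor for degradation, was measured at 588 and 462 CPM for control, 622 and 614 for PU.1 cKO, then 624 and 712 for SpiB KO and 1063 and 1001 for DKO. Both DKO libraries lay above all others, at 0.98 ± 0.12 (adjusted p = 0.000331) against control, 0.74 ± 0.12 (adjusted p = 0.00474) against PU.1 cKO and 0.63 ± 0.12 (adjusted p = 0.00675) against SpiB KO. Ctsd was measured at 68.4 and 69.8 CPM for control, 79.2 and 84.8 for PU.1 cKO, then 72.7 and 81.0 for SpiB KO and 102 and 106 for DKO. DKO was at 0.59 ± 0.08 (adjusted p = 0.000773), a call that fell under 1.5-fold with DESeq2 or its size factors. Ctsa (protective protein, which stabilises Neu1 and beta-galactosidase) was measured at 123 and 88.0 CPM for control, 91.6 and 75.0 for PU.1 cKO, then 132 and 145 for SpiB KO and 161 and 151 for DKO. It was not DE against control in DKO, at 0.57 ± 0.15 (adjusted p = 0.0178) and a fold under 1.5, but differed from PU.1 cKO by 0.91 ± 0.15 (adjusted p = 0.00543). Laptm5 and Ctsa were the 2 DE members between DKO and PU.1 cKO, where 8.1% of genes were DE, 5.72% higher and 2.38% lower. The count was 3 to 5 when 1 library was left out, 5 without PU.1 cKO replicate 1.

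Against SpiB KO, DKO had 5 DE members where 8.09% of genes were DE, 5.19% higher and 2.9% lower. Lgmn, Grn and Ctss were lower, and Laptm5 and Gla were higher, Gla by 0.67 ± 0.14 (adjusted p = 0.0106) with 7.11 and 7.73 CPM for SpiB KO and 11.2 and 12.3 for DKO. In the main fit, which had no block, the test of DKO against what the single losses add up to was called for Asah1 alone. Asah1 was at 0.64 ± 0.15 (adjusted p = 0.139), where 1.48% of genes were called, 0.683% above and 0.796% below the sum. In the blocked fit, by replicate number, 4 members were called, Asah1 (adjusted p = 0.0205), Lamp1 (0.0739), Npc2 (0.0896) and Ctsa (0.129). Tfeb was measured at 77 and 61.2 CPM for control, 71.3 and 61.5 for PU.1 cKO, then 80.7 and 86.6 for SpiB KO and 91.9 and 89.9 for DKO. In DKO it was at 0.40 ± 0.12 (adjusted p = 0.027), under the fold threshold. Tfe3 was measured at 51.0 and 44.7 CPM for control, 48.1 and 43.7 for PU.1 cKO, then 50.1 and 51.3 for SpiB KO and 44.4 and 44.9 for DKO. The 16 macrophage markers summed to 18.8 and 12.4 CPM for control, 6.83 and 3.94 for PU.1 cKO, then 21.5 and 23.7 for SpiB KO and 7.55 and 6.20 for DKO. The 8 plasma cell markers summed to 674 and 728 CPM for control, 1216 and 1337 for PU.1 cKO, then 764 and 819 for SpiB KO and 1682 and 1671 for DKO. The 8 B cell markers summed to 4704 and 4093 CPM for control, 3710.3 and 3425 for PU.1 cKO, then 4435 and 4730.4 for SpiB KO and 4179 and 4116 for DKO. The part of these in the differences was not tested.

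Whether the effect of losing both factors depended on the stage was tested in 1 fit of all 24 libraries. The difference between DKO and control changed from naive to CD40L + IL-4 in 17 of 34 members, 16 of them downwards, where 16.8% of all genes changed and 9.62% downwards. From naive to LPS + IL-4 it changed in 14, 10 of them downwards, where 29.6% of all genes changed and 16% downwards. From CD40L + IL-4 to LPS + IL-4 it changed in 13, 12 of them upwards, where 28.6% of all genes changed, 13.6% upwards and 15% downwards. The tests share the same DKO and control libraries. The largest changes were those of Grn, at -4.23 ± 0.27 (adjusted p = 1.57e-08) for CD40L + IL-4 and -4.08 ± 0.27 (adjusted p = 2.4e-08) for LPS + IL-4, each minus naive. Ctsl followed at -2.73 ± 0.57 (adjusted p = 0.00354) and -2.72 ± 0.47 (adjusted p = 0.000662), then Ctsb at -2.66 ± 0.21 (adjusted p = 1.92e-07) and -1.77 ± 0.21 (adjusted p = 1.62e-05), Psap at -2.09 ± 0.21 (adjusted p = 2.42e-06) and -1.10 ± 0.21 (adjusted p = 0.00118), and Lgmn at -1.99 ± 0.27 (adjusted p = 6.31e-05) and -0.76 ± 0.27 (adjusted p = 0.0569). The naive term of these differences carries the pDC marker difference given above. It also comes from DKO cells in which the study reported marked retention of the floxed Spi1 exon. A change between naive and cultured cells can thus reflect stage or excision, and the part of each was not tested.

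Between the cultures, the effect of losing both factors was higher with LPS + IL-4 for 12 of the 13 members called, and lower for Neu1. Of all genes, 13.6% were called higher and 15% lower in this test. The effect on Spi1 itself was higher with LPS + IL-4 in the same test, by 1.54 ± 0.22 (adjusted p = 0.000325). For Spib it was higher by 1.25 ± 0.29 (adjusted p = 0.00801). The part of these in the differences between the cultures was not tested. Laptm5 was at 1778 and 2119 CPM in control against 1726 and 1591 in DKO with CD40L + IL-4, and its effect was higher with LPS + IL-4 by 1.13 ± 0.19 (adjusted p = 0.00125). Lgmn, lower in both, differed by 1.23 ± 0.27 (adjusted p = 0.00652). Ctsa was at 249.7 and 295 CPM in control against 256 and 189 in DKO with CD40L + IL-4 and 123 and 88.0 CPM in control against 161 and 151 in DKO with LPS + IL-4. Mcoln1 (TRPML1, the calcium channel of the lysosome) was at 17.7 and 19.2 CPM in control against 13.1 and 14.8 in DKO with CD40L + IL-4 and 12.9 and 11.3 CPM in control against 16.7 and 14.4 in DKO with LPS + IL-4. Lamp1, a main glycoprotein of the membrane, was at 300.3 and 344 CPM in control against 306 and 246 in DKO with CD40L + IL-4 and 197 and 194 CPM in control against 254 and 257 in DKO with LPS + IL-4. Tpp1, a tripeptidyl peptidase, was at 83.9 and 109 CPM in control against 85.7 and 70.0 in DKO with CD40L + IL-4 and 59.8 and 54.5 CPM in control against 70.8 and 77.036 in DKO with LPS + IL-4. Man2b1, a mannosidase, was at 181 and 204 CPM in control against 143 and 146 in DKO with CD40L + IL-4 and 106 and 106 CPM in control against 117 and 124 in DKO with LPS + IL-4. In each of these 5 genes both DKO libraries lay above both control libraries with LPS + IL-4, and neither lay above both with CD40L + IL-4. The 5 were named because the test between the cultures was called in these same libraries. The order of their libraries is therefore not a separate result, and no share of all genes with that order was taken. Tfeb, which drives lysosomal genes, had an effect that was higher with LPS + IL-4 than with CD40L + IL-4 by 0.74 ± 0.19 (adjusted p = 0.0126). For Ctsz the effect changed from 316 and 327 CPM in control against 357 and 350.0 in DKO in naive cells to 399 and 461 against 307 and 294 with CD40L + IL-4. For Ctsc it changed from 447 and 419.8 CPM in control against 459.7 and 395 in DKO in naive cells to 235 and 297 against 189 and 170.0.

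Further lists of lysosomal genes were counted in the same fits, with the same backgrounds. In DKO these were 14.1% of all genes in naive cells (7.39% higher, 6.7% lower) and 13.7% with CD40L + IL-4 (5.84% higher, 7.82% lower). With LPS + IL-4 the share in DKO was 13.6% (8.76% higher, 4.81% lower). In the same order of stages it was 8.4%, 9.36% and 6.67% in PU.1 cKO and 6.35%, 0.11% and 2.29% in SpiB KO. Of 31 other hydrolases and activators tested, 1 was higher and 9 lower in PU.1 cKO and 2 higher and 7 lower in DKO with CD40L + IL-4, while in naive DKO cells 5 were higher and 1 lower, and with LPS + IL-4 6 were higher and 0 lower. The 2 largest changes in DKO were Ctsw, a cathepsin of lymphocytes, at 1.76 ± 0.38 (adjusted p = 0.0113), and Creg1 at 0.997 ± 0.15 (adjusted p = 0.00165) in naive cells. With CD40L + IL-4 they were Ctsw at 2.76 ± 0.45 (adjusted p = 0.00247) and Ctso at -1.71 ± 0.23 (adjusted p = 0.000708). The next were Ctsw at 2.74 ± 0.42 (adjusted p = 0.00123) and Acp5, an acid phosphatase, at 1.28 ± 0.29 (adjusted p = 0.0082) with LPS + IL-4. Ctsw was measured at 2.11 and 1.99 CPM for control and 16.9 and 11.1 for DKO with CD40L + IL-4. The 16 subunits of the V-ATPase, the proton pump that acidifies the lysosome, held 1 DE gene in DKO over the 3 stages, 2 in naive and 1 in LPS + IL-4 PU.1 cKO cells, and 0 in SpiB KO. The 1 in DKO was Atp6v0a1 with CD40L + IL-4, at -0.88 ± 0.21 (adjusted p = 0.0174).

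Of 37 genes for the lysosomal membrane, transport and sorting, DKO had 2 higher and 2 lower in naive cells, 2 higher and 8 lower with CD40L + IL-4 and 7 higher and 1 lower with LPS + IL-4. For this list and those below, 14.1%, 13.7% and 13.6% of all genes were DE in DKO at the stages in that order. Lyst, mutated in Chediak-Higashi syndrome, was among the largest at each stage, at -1.18 ± 0.22 (adjusted p = 0.00491), -2.87 ± 0.26 (adjusted p = 6.43e-05) and -1.82 ± 0.33 (adjusted p = 0.0028). Its levels with CD40L + IL-4 were 137 and 81.2 CPM for control and 14.4 and 15.4 for DKO. The other named genes were Sort1, a sorting receptor, at 2.14 ± 0.28 (adjusted p = 0.000751) in naive cells, Mcoln2 at 1.94 ± 0.30 (adjusted p = 0.00192) with CD40L + IL-4 and Abcb9, a lysosomal peptide transporter, at 2.56 ± 0.18 (adjusted p = 1.53e-05) with LPS + IL-4. Of 15 genes of the Ragulator, Rag GTPases, folliculin partners and further MiT/TFE factors, DE calls in DKO were Rragd at 1.02 ± 0.34 (adjusted p = 0.0747) and Fnip1 at -0.88 ± 0.28 (adjusted p = 0.0624), both with CD40L + IL-4. With LPS + IL-4 Rragd was measured at 0.908 and 0.882 CPM for control, 3.98 and 2.22 for PU.1 cKO, then 2.61 and 3.24 for SpiB KO and 10.534 and 9.32 for DKO, and could not be called there since its mean deposited log2 RPKM was not above 0. Among the cathepsin inhibitors, 1 of 5 tested was higher in naive DKO cells and 0 lower. With CD40L + IL-4 2 of 6 were higher and 1 lower, and with LPS + IL-4 2 of 6 were higher and 0 lower. Cst7 (cystatin F) was higher at all 3 stages, at 1.96 ± 0.52 (adjusted p = 0.0267), 2.01 ± 0.19 (adjusted p = 6.65e-05) and 2.21 ± 0.17 (adjusted p = 2.66e-05). Its naive value rested on 24 and 9 counts in control. Serpinb1a was higher in both cultures, at 1.19 ± 0.28 (adjusted p = 0.0191) and 3.62 ± 0.14 (adjusted p = 6.95e-07).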

How the data were processed

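RNA-seq was made from naive and cultured lymph node B cells of 4 genotypes. Per the submitters' processing notes and the study's methods, the authors used Subread to align reads to GRCm38/mm10 and featureCounts to count uniquely mapped ones over RefSeq exons. The deposited values are raw counts per gene for 24 libraries, and the authors also deposited log2 RPKM per library, normalized by them, which were used here only for the expression threshold and for levels per length. Columns not assigned to a library numbered 0.

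Counts were filtered at 0.5 CPM in at least 2 libraries of a stage, scaled by TMM and tested with edgeR 4.0.16 (glmQLFit and glmQLFTest, R 4.3.3) over all genes, with the 8 libraries of a stage in 1 fit for genotypes and all 24 for stages. The study used voom of limma (3.58.1 here), which was run with DESeq2 1.42.0 as an alternative, since quasi-likelihood tests were the main test for counts. Other alternatives were RLE size factors, no filter on low counts, no RPKM threshold, an adjusted p under 0.05, a replicate block, all 24 libraries or the control libraries alone in 1 fit, and leaving out each library. The fits were tested on simulated data with 200 genes changed by 1 log2 unit. Recovery ran from 72.5% with 38 false calls (CD40L + IL-4, DKO against control) to 90.5% with 19 (LPS + IL-4, DKO against control). Genes were called as described in the report, and interactions and differences of effects at an adjusted p under 0.15 alone. Each SE was derived from the log2 fold change and its F statistic. The 517 rows without a symbol, with 0.0859% to 0.453% of the counts, have an Entrez ID and were kept.

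Groups came from the labels. Same-numbered libraries were checked for pairing by the correlation of their deviations from group means: 0.0918 to 0.250 in naive cells, -0.0702 to 0.266 with CD40L + IL-4 and 0.386 to 0.514 with LPS + IL-4. A threshold of 0.1 in every pair was met by LPS + IL-4 alone. The main fits had no replicate block at any stage, LPS + IL-4 included, so the values and adjusted p in the report leave this pairing out. The block was run as an alternative. The members, further lists and markers were chosen with earlier results of these data known. Named with values were members called against control, in an interaction or in a difference of effects between stages, the 5 largest rises and falls in control, Tfeb and Tfe3, and the 2 largest changes in PU.1 SpiB DKO of each further list.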

Additional observations from a re-analysis of the deposited data

Results flagged for a closer look

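Each result below was marked because the test of a difference between effects passed an adjusted p of 0.15 in edgeR's quasi-likelihood test. Values are differences of log2 fold changes, and the tests share control and PU.1 SpiB DKO libraries.

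PU.1 SpiB DKO lay apart from what the single losses add up to in Asah1, by 0.89 in naive cells and 0.64 with LPS + IL-4, and for Lgmn at -1.22 with CD40L + IL-4. SpiB KO had no Cre and control no floxed Spi1, so these departures cannot be told apart from an effect of Cre.

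For the effect of losing both factors with CD40L + IL-4 minus that in naive cells, proteases were marked at -2.73 (Ctsl), -2.66 (Ctsb), -1.99 (Lgmn), -1.13 (Ctsh), -0.68 (Ctsa), -0.64 (Ctsz), -0.53 (Ctsc) and -0.50 (Ctss). Soluble proteins were marked at -4.23 (Grn), -2.09 (Psap) and -0.75 (Npc2), and membrane proteins at -0.84 (Npc1) and -0.77 (Lamp2). Hydrolases were marked at -0.71 (Gusb), -0.67 (Hexa), -0.60 (Asah1) and 0.87 (Neu1). The naive PU.1 SpiB DKO libraries also held the higher pDC marker sums given in the report, whose part was not tested. The study reported marked retention of the floxed Spi1 exon in naive cells of this genotype, and its part was not tested either.

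With LPS + IL-4 minus naive cells the values were -4.08 for Grn, -2.72 for Ctsl, -1.77 for Ctsb, -1.17 for Gusb, -1.10 for Psap and -0.76 for Lgmn. Smaller negative values were -0.72 for Npc2, -0.60 for Npc1, -0.58 for Ctsz and -0.55 for Asah1. The 4 positive ones were 0.40 for Neu1, 0.46 for Lamp1, 0.68 for Tfeb and 1.08 for Laptm5.

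With LPS + IL-4 minus CD40L + IL-4 the effect differed by -0.47 for Neu1. It was higher by 0.52 for Man2b1, 0.53 for Lamp1, 0.60 for Tpp1, 0.69 for Mcoln1, 0.74 for Tfeb and 0.78 for Ctsa. The 6 largest differences were 0.89 for Ctsb, 0.91 for Hexa, 0.99 for Psap, 1.02 for Ctsh, 1.13 for Laptm5 and 1.23 for Lgmn. The effect on Spi1 and Spib themselves also differed between the cultures, and the part of this was not tested.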

How the results depend on the processing

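The 180 calls of a member in a comparison were recomputed under every alternative that applied, which gave 2304 values: 2151 kept their direction and their side of the threshold, 153 kept their direction and lost the call, and 0 reversed. Counts of members called moved by more than 1.5 times in the following, and the cause was not tested. For the naive interaction (1 called) the count was 0 at an adjusted p under 0.05, 2 with DESeq2, 0 with voom, 2 with no filter on low counts and 2 with all 24 libraries in 1 fit. For the CD40L + IL-4 interaction (1) it was 0 at 0.05, 0 with voom, 2 with no filter and 3 with all 24 libraries, and for the LPS + IL-4 interaction (1) it was 0 at 0.05, 3 with no filter and 0 with all 24 libraries. DKO against SpiB KO in naive cells (1) gave 0 with voom, DKO against PU.1 cKO with CD40L + IL-4 (2) gave 4 with no filter and 4 with all 24 libraries, and the change of the effect of losing both factors from naive to CD40L + IL-4 (17) gave 10 at 0.05.

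Under a replicate block the naive interaction was called for 5 members (Laptm4a, Ctsa, Ctsz, Asah1 and Man2b1), and the LPS + IL-4 interaction for 4. LPS + IL-4 was the stage where same-numbered libraries deviated together, and its main fit had no block. The block changed no other count of members by more than 1.5 times.

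When 1 library was left out, naive counts ranged from 2 to 6 for PU.1 cKO (2 without control replicate 2 or PU.1 cKO replicate 2), 6 to 11 for SpiB KO (11 without control replicate 1), 9 to 10 for DKO, 0 to 1 for DKO against SpiB KO and 0 to 4 for the interaction. With CD40L + IL-4 they ranged from 8 to 11 for PU.1 cKO, 8 to 11 for DKO, 1 to 2 for DKO against PU.1 cKO and 0 to 1 for the interaction. With LPS + IL-4 they ranged from 4 to 6 for PU.1 cKO, 0 to 2 for SpiB KO, 7 to 8 for DKO, 3 to 5 for DKO against PU.1 cKO, 3 to 6 for DKO against SpiB KO (3 without SpiB KO replicate 1) and 0 to 3 for the interaction. The change of the effect of losing both factors from naive to CD40L + IL-4 was called for 9 to 20 members (9 without naive control replicate 2, 10 without naive DKO replicate 1 and 11 without CD40L + IL-4 DKO replicate 2). A lone library left in a group was assumed to vary like the other groups.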
